A study of Mus musculus with 4 samples.

Results

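The small leucine-rich proteoglycans are secreted matrix proteins built on a core of leucine-rich repeats, most of which carry chondroitin, dermatan or keratan sulfate chains. They were followed here in basal cells sorted from mouse mammary glands, on a soy protein isolate (SPI) diet and on a control casein (CAS) diet. The family was defined by 10 gene symbols, Lum, Fmod, Ogn, Dcn, Bgn, Aspn, Prelp, Omd, Kera and Podn, and by every probe set that the platform annotation maps to exactly 1 gene with such a symbol. This gave 21 probe sets for all 10 genes, of 18193 genes with a probe set on the array. The choice of this family was made with the SPI against CAS values of these arrays known, Lum, Fmod and Ogn being among the largest differences. The diet values of the members are therefore a description, and the count of members past a threshold supports nothing further.

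Each of the 4 Affymetrix arrays held RNA of freshly sorted basal cells, a population of stem cells, myoepithelial cells and their progenitors per the labels. Arrays SPI replicate 1 and 2 came from mice on the soy protein isolate diet and arrays CAS replicate 1 and 2 from mice on the casein diet. All mice carried the MMTV-Wnt1 transgene on the mixed background B66SJL/HEV/J, so that no array shows the gland without Wnt1. MMTV is a viral promoter that drives expression in the mammary gland. The labels give no age and do not tell whether the 2 arrays per diet hold different animals, so the spread within a diet, on which every p rests, may be technical.

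In connective tissue these proteins bind fibrillar collagen and set the width and spacing of its fibrils. Decorin and biglycan also bind growth factors such as TGF-beta, and biglycan can signal through Toll-like receptors. In the mammary gland the family is known mainly from stromal fibroblasts and less from the epithelium. Sequence and gene layout divide it into classes, with Dcn, Bgn and Aspn in class I, Lum, Fmod, Prelp, Omd and Kera in class II, Ogn in class III and Podn in class V.

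Members of the family lie side by side on the mouse chromosomes. In the RefSeq gene order of GRCm38.p6, Dcn, Lum and Kera are consecutive among protein-coding genes on chromosome 10, Aspn, Omd and Ogn on chromosome 13, and Prelp and Fmod on chromosome 1, while Podn on chromosome 4 and Bgn on chromosome X stand alone. The 250 bases before the transcription start are shown for 2 pairs of neighbours that behaved unlike each other, Fmod with Prelp and Ogn with Omd. The sequences are RefSeq's for GRCm38.p6, 5′ to 3′ on the strand of the gene, and capitals mark motifs found on either strand. The search was for the core promoter element TATAAA, the letters GGGCGG that transcription factors of the Sp family bind, the AP-1 site TGANTCA, the core TGTGGT that is bound by RUNX factors, and the letters CATTCC that TEAD factors bind. In the Ogn window the capitals next to its 5′ end are 2 overlapping matches, 1 on each strand.
Fmod, chr1:134037004-134037253, plus strand: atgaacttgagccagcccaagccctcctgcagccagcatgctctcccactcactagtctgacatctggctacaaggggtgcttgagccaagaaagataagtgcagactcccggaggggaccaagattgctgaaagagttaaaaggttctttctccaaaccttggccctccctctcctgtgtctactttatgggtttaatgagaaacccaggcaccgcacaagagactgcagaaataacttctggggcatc
Prelp, chr1:133921402-133921651, minus strand: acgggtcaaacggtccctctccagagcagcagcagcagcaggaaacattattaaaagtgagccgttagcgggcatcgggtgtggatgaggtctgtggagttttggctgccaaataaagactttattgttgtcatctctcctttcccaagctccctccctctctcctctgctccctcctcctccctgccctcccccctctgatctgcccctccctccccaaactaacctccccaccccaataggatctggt
Ogn, chr13:49607765-49608014, plus strand: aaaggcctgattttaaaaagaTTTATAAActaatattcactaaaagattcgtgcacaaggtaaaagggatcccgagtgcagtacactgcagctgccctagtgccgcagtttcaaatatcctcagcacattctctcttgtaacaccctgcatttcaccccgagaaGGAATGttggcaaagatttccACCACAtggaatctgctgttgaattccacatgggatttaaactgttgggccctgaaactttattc
Omd, chr13:49582212-49582461, plus strand: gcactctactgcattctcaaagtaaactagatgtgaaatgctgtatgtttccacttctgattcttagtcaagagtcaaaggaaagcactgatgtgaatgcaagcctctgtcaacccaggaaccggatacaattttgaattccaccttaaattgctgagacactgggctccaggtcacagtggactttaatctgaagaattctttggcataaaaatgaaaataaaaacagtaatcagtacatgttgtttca
None of these motifs was found in the windows of Fmod, Prelp and Omd. The Ogn window held TATAAA on each strand and 1 match each to the TEAD and RUNX letters. Of 32851 promoters of this length in the same table, 12.4% held the first of these, 12.6% the TEAD letters and 14.0% the RUNX core. The GC content was 51.2% for Fmod, 55.6% for Prelp, 42.0% for Ogn and 38.4% for Omd. A match is a string of letters and not a shown binding site.

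By gene value the members divided into 3 that were more than 4-fold lower on SPI, 1 that was lower by less, and 6 that lay near 0 or had small differences. A gene value takes only the probe sets in the gene's highest class of signal, 2 of 6 for Fmod and 1 of 2 for Ogn. Outside these, probe sets were lower by as little as 3.24-fold for Fmod and 3.16-fold for Ogn. In bulk RNA fewer cells of a type cannot be told apart from less RNA per cell. Values are deposited log2 expression values centred per probe set on the median of the 4 arrays, so they carry differences between arrays and no level. Because that median lies midway between the inner pair of the 4 values, the inner values are equal in size and opposite in sign, and their symmetry is made by the centring. Differences are SPI minus CAS on the log2 scale, with the 95% interval of a limma fit over all 45037 non-control probe sets. A probe set was called at a Benjamini-Hochberg adjusted p under 0.05 over all of them.

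**Figure D1:**
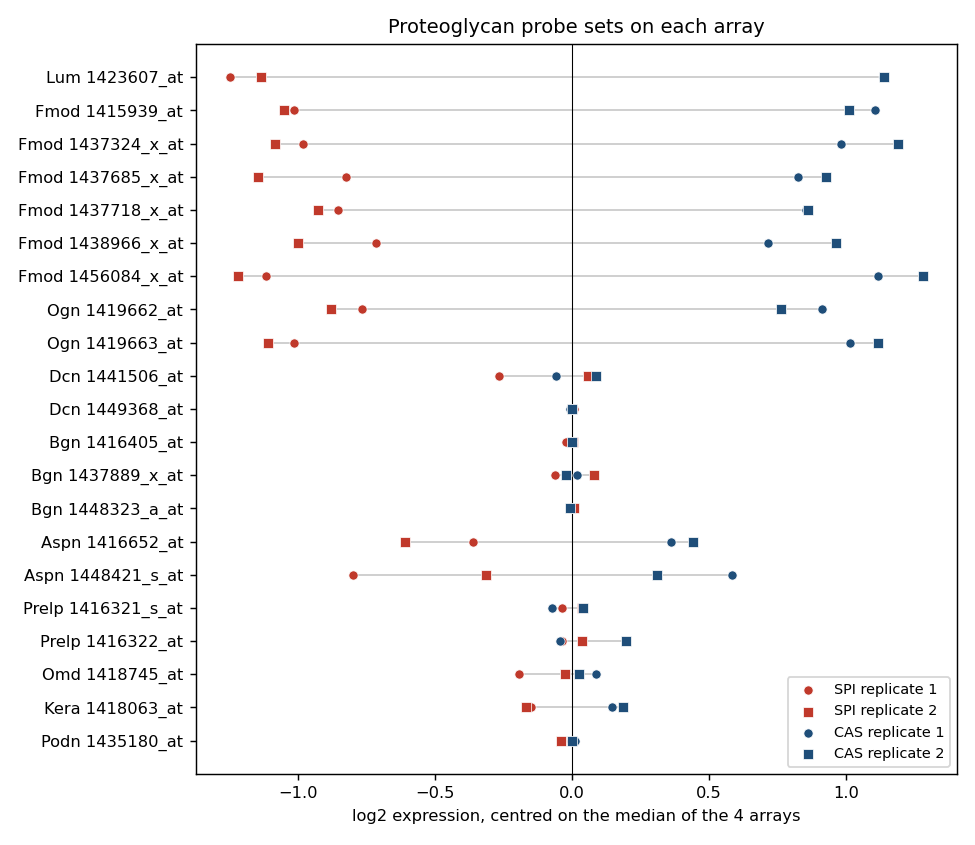
Centred log2 expression (horizontal axis) of the 21 probe sets of the family, with red points for the 2 SPI arrays, blue points for the 2 CAS arrays and a grey line over their range. For Lum, Fmod, Ogn and Aspn both SPI arrays lie left of both CAS arrays, while the points of Bgn, Prelp and the Dcn probe set 1449368_at lie close to 0.

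Lum encodes lumican, a keratan sulfate proteoglycan of corneal and dermal collagen. Its single probe set read -1.25 and -1.13 on the SPI arrays, against 1.13 and 1.14 on the CAS arrays. Both SPI arrays were low and the diets did not overlap. The difference of -2.33 (SE 0.08, 95% interval -2.53 to -2.12, n = 2 arrays per diet) is 5.01-fold lower on SPI, and it was the 12th lowest of all 45037 probe sets. The CAS arrays differed from each other by 0.00501 and the SPI arrays by 0.112.

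Fmod encodes fibromodulin, which binds collagen and takes part in fibril maturation. Its 6 probe sets are the most for any member. The probe set 1415939_at read -1.01 and -1.05 on SPI, against 1.10 and 1.01 on CAS, a difference of -2.09 (95% interval -2.29 to -1.89). The other 5 carry the suffix _x_at, which marks probes that can bind related transcripts, and they gave differences between -1.70 and -2.36. On all 6 both SPI arrays were below both CAS arrays. The probe sets agreed in direction but not in size, since the interval of 1438966_x_at (-2.05 to -1.34) does not reach that of 1456084_x_at (-2.60 to -2.13).

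Ogn encodes osteoglycin, also called mimecan, a keratan sulfate proteoglycan of connective tissue. The probe set 1419663_at read -1.01 and -1.11 on SPI, against 1.01 and 1.12 on CAS, and 1419662_at read -0.76 and -0.88 on SPI, against 0.91 and 0.76 on CAS. The differences were -2.13 (95% interval -2.34 to -1.91) and -1.66 (-1.90 to -1.42), or 4.37-fold and 3.16-fold lower. The probe set with the smaller difference lay in a lower class of signal, 2 to 4 on the log2 scale by the step size of its digits, against 8 to 16 for the other. The diets did not overlap on either probe set.

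Aspn encodes asporin, a class I member with a run of aspartic acid residues and no glycosaminoglycan chain. It was lower on SPI by less. The probe set 1416652_at read -0.36 and -0.61 on SPI, against 0.36 and 0.44 on CAS, a difference of -0.89 (95% interval -1.16 to -0.61). The probe set 1448421_s_at read -0.80 and -0.31 on SPI, against 0.58 and 0.31 on CAS. Its difference of -1.002 was as large, but its SPI arrays lay 0.487 apart, a wider gap than for 98.4% of all probe sets, and it was not called.

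Dcn encodes decorin, the class I proteoglycan that binds collagen and TGF-beta, and its gene is the direct neighbour of Lum. The probe set 1449368_at read 0.0095 and -0.0005 on SPI, against -0.0074 and 0.0005 on CAS. All 4 arrays lay within 0.017, a narrower range than for all but 0.144% of probe sets. Its class of signal, 8 to 16, rests on the digits of only 2 of its values. The difference was 0.0080 (95% interval -0.18 to 0.19). The second Dcn probe set, 1441506_at, in the class 2 to 4, read -0.26 and 0.06 on SPI, against -0.06 and 0.09 on CAS, and its difference was -0.12 (-0.46 to 0.22). The diets overlapped on both, and the intervals hold no fold of the size seen for Lum.

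Bgn encodes biglycan, the close relative of decorin. The probe set 1448323_a_at read 0.0086 and 0.0075 on SPI, against -0.0083 and -0.0075 on CAS, within a total range of 0.017. It was the 1 probe set of the family with both SPI arrays above both CAS arrays, at a difference of 0.016 (95% interval -0.17 to 0.20). The other Bgn probe sets, at -0.0085 and 0.0095, overlapped between the diets. All 3 lay in the class 8 to 16, 1416405_at by the digits of only 2 of its values. Col1a2 and Col3a1 differed by -1.31 and -1.56 on their probe sets in the same class, and by -0.89 and -1.71 over all of their probe sets. The class does not tell where in 8 to 16 a signal lies. The cause of the narrow ranges was not tested.

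The class II members Prelp, Omd and Kera and the class V member Podn gave small differences. Prelp encodes prolargin, which anchors basement membranes to collagen, and its probe set 1416321_s_at read -0.037 and 0.037 on SPI, against -0.073 and 0.042 on CAS. The Prelp difference of 0.015 (95% interval -0.20 to 0.23), and that of -0.077 (-0.35 to 0.19) on 1416322_at, came with overlapping diets. Omd encodes osteomodulin, a protein of bone matrix, and it read -0.19 and -0.026 on SPI, against 0.089 and 0.026 on CAS. The Omd difference was -0.17 (-0.40 to 0.066), with both SPI arrays below both CAS arrays but an interval that holds 0.

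Kera encodes keratocan, a proteoglycan of the cornea. It read -0.15 and -0.17 on SPI, against 0.15 and 0.19 on CAS. The difference of -0.32 (95% interval -0.51 to -0.14) was larger than the gaps of 0.021 between the SPI arrays and 0.039 between the CAS arrays, yet it was not called over all probe sets. In the limma fit over genes the adjusted p of Kera was 0.0714. Podn encodes podocan, and it read -0.0024 and -0.038 on SPI, against 0.013 and 0.0024 on CAS, a difference of -0.028 (-0.21 to 0.16). Among the values near 0, signs of Dcn, Bgn, Prelp and Podn probe sets turned with the centring of the arrays.

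Over the family 10 of 21 probe sets were called lower on SPI and 0 higher, where 1.25% of all probe sets were called lower and 0.249% higher. With arrays centred on hybridization controls 11 member probe sets were called lower and 0 higher, and the balance over all probe sets turned, to 704 lower and 1557 higher, against 564 and 112 without that centring. The 10 without it are the single Lum, 6 Fmod, 2 Ogn and 1 Aspn probe sets. They share targets and are not independent counts. Without SPI replicate 1, SPI replicate 2, CAS replicate 1 or CAS replicate 2, each left out in turn, 0 of the 21 were called, with adjusted p of 0.122 or above, and 0 of all probe sets were. On the same arrays the median difference of 22 fibroblast markers was -1.11. Both SPI arrays lay below both CAS arrays on 14 probe sets (20.5% of all probe sets) and above them on 1 (27.9% of all), and the other 6 overlapped. The median difference was -0.89 over the 21 probe sets and 0.023 over all probe sets. With 1 value per gene, 4 of 10 genes were called lower, where 2.9% of all genes were, and the median was -0.25 against 0.022 over all genes. Over all genes 527 were lower and 144 higher, and with the hybridization controls 498 and 1539. These counts describe the choice of the family, for which the same contrast was known.

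**Figure D2:**
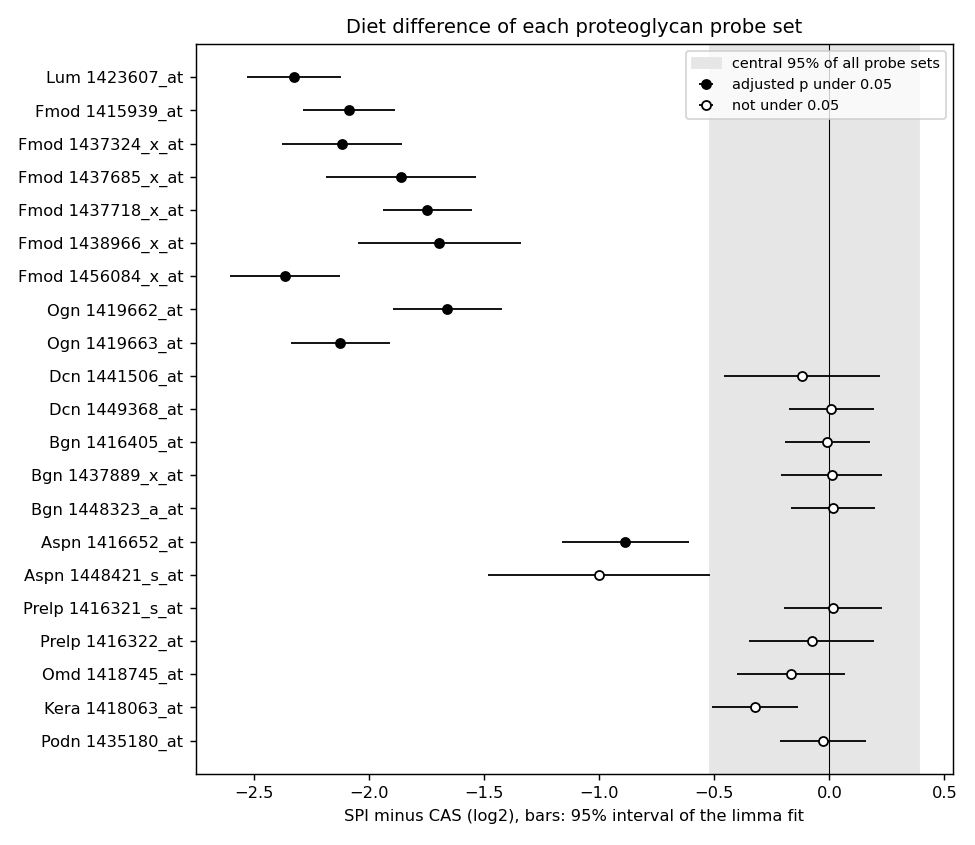
SPI minus CAS difference (log2, horizontal axis) of each probe set of the family with the 95% interval of the limma fit. Filled points had an adjusted p under 0.05, and the grey band, from -0.52 to 0.39, holds the central 95% of all probe sets.

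Gaps between replicates were about as wide in the family as over the array. The gap between the CAS arrays had a median of 0.092 over the 21 probe sets and 0.108 over all probe sets. Between the SPI arrays it was 0.100 over the family and 0.099 over all. The largest gaps were 0.487 on SPI and 0.271 on CAS, both for Aspn 1448421_s_at. The members were chosen with the diet differences known, and whether the replicate gaps had a part in that choice was not tested.

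Neighbouring genes had unlike values. On chromosome 10 Lum, at -2.33, lies between Dcn at 0.0080 and Kera at -0.32 (gene values). Next to Kera is Epyc, which encodes the class III member epiphycan of cartilage. Epyc fell by 0.44 on the log2 scale (95% interval -0.61 to -0.27, limma adjusted p = 0.0373), with a signal class under 2. On chromosome 13 Ogn, at -2.13, and Aspn, at -0.89, enclose Omd at -0.17, and Ecm2 beside Aspn was at -0.10 (adjusted p = 0.636). On chromosome 1 Fmod, at -2.23, lies next to Prelp at 0.015, and Optc, the gene of opticin beside Prelp, was at 0.067 (adjusted p = 0.715). The intervals were -2.51 to -2.14 for Lum, -2.32 to -1.93 for Ogn and -2.40 to -2.06 for Fmod. Each lies below that of the Dcn, Omd or Prelp gene beside it. Lum, Ogn and Fmod were known as large differences when the family was chosen, so this separation is a description and not a test.

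**Figure D3:**
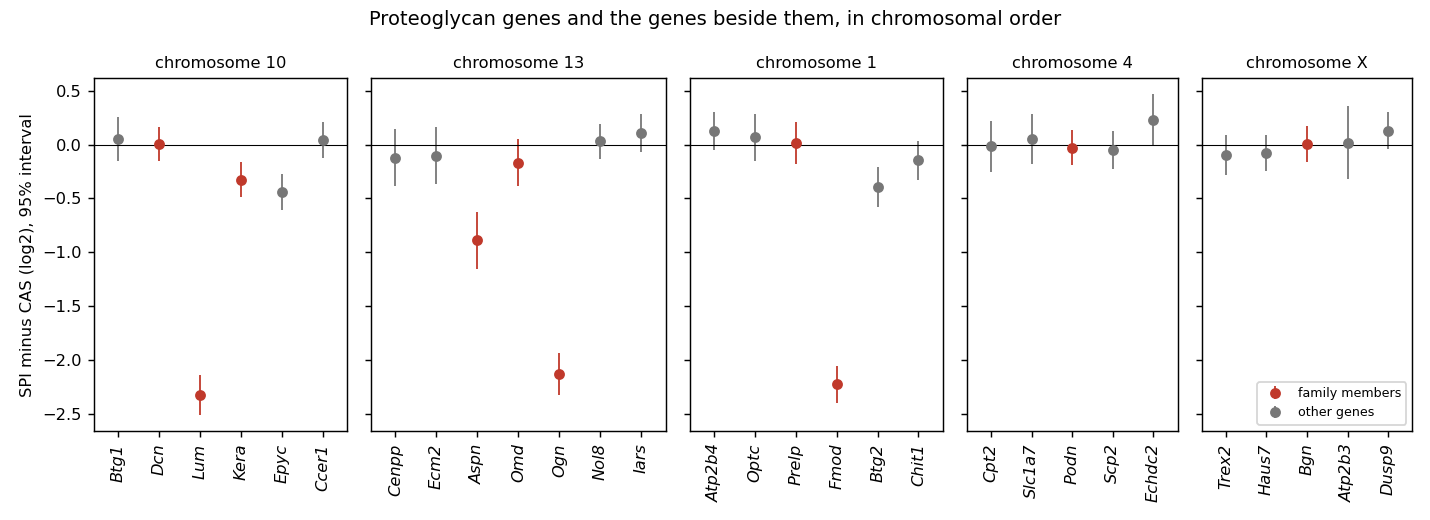
SPI minus CAS difference (log2, vertical axis) per gene with the 95% interval, for the family (red) and the protein-coding genes beside each (grey), in chromosomal order and not to scale. Lum, Ogn and Fmod lie below -2 while Dcn, Omd and Prelp beside them lie between -0.17 and 0.015.

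The genes with the pattern most like Lum over the 4 arrays, by Euclidean distance of the centred values among 14274 other genes at signal class 4 or above, were Crabp1 (distance 0.186), Ms4a4d (0.195), Cpxm1 (0.287) and Saa1 (0.319). Crabp1 binds retinoic acid and Saa1 is an acute-phase protein. For Fmod they were Ms4a4d (0.0898), Crabp1, Saa1 and Iigp1, and for Ogn Ms4a4d (0.105), Saa1, Crabp1 and Iigp1. With values centred on 4 arrays the measure follows mainly the size of the diet difference.

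Of the other leucine-rich repeat matrix genes, 2 of 6 measured fell on SPI, 0 rose and 4 did not pass (limma over 18193 genes, 2.9% of which were called lower and 0.792% higher). The 2 are Epyc and Chad. Nyx, the gene of nyctalopin of the eye, was at 0.13 and Chadl, a relative of Chad, at 0.072, and neither passed. Chad encodes chondroadherin of cartilage and fell by 0.85 on the log2 scale (SE 0.072, adjusted p = 0.0104), reading -0.39 and -0.50 on SPI, against 0.41 and 0.39 on CAS. The median of the 6 was -0.017. Leaving out any 1 of the 4 arrays took the call from every gene on the array. The loss of calls is therefore not particular to this list or to those that follow.

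Collagens are the main binding partners of the family. Of 14 collagens of fibrils and their surfaces 8 fell, 0 rose and 6 did not pass, with a median of -1.09, beside that of -1.11 for the fibroblast markers. Col1a1, a chain of type I collagen, read -0.84 and -0.91 on SPI, against 0.74 and 0.91 on CAS (difference -1.70, adjusted p = 0.00371). Col6a2, of the microfibrils of type VI collagen, was 3.08-fold lower (adjusted p = 0.00371). Col14a1, a collagen on fibril surfaces, was at 0.062 and Col5a1, of the fibril core, at -0.18, and neither passed. Col12a1, also on fibril surfaces, was at 0.18 and did not pass.

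Calls among the enzymes that build the sugar chains were about as rare as over all genes (2.9% lower and 0.792% higher). Not passing does not show that an enzyme was unchanged. Of 21 measured enzymes of chondroitin and dermatan sulfate 1 fell, 0 rose and 20 did not pass, with a median of 0.048. The 1 was Chst12, a chondroitin sulfotransferase, at -0.50 (SE 0.064, adjusted p = 0.0263). Csgalnact1, which starts chondroitin chains, was at -0.37 (adjusted p = 0.0681) and Chst11, another sulfotransferase, at 0.31 (adjusted p = 0.0786). Xylt2, a xylosyltransferase that starts glycosaminoglycan chains, was at 0.32 (adjusted p = 0.153). Of 8 keratan sulfate enzymes 0 passed in limma. Chst1, which sulfates keratan chains, was nearest at -0.42 (unadjusted p = 0.00218, adjusted p = 0.0544), and it was the 1 with an unadjusted p under 0.05. The galactosyltransferases B4galt4 and B4galt1 were at 0.34 and -0.18, and B3gnt2, an N-acetylglucosaminyltransferase, was at 0.15.

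Other proteoglycans did not move as one. Of 23 core proteins 3 rose, 1 fell and 19 did not pass, with a median of 0.062. Vcan, the large aggregating proteoglycan versican, rose 1.43-fold (adjusted p = 0.033), reading 0.23 and 0.33 on SPI, against -0.26 and -0.21 on CAS. Spock2 and Spock1, the testicans, rose 1.41-fold (adjusted p = 0.0451) and 1.37-fold (adjusted p = 0.0374). With each gene averaged over all of its probe sets Vcan was at 0.31 (adjusted p = 0.0923), against 0.52 over its highest class, and Spock2 at 0.45 (adjusted p = 0.0729), so that neither passed. All 3 lost their calls with the replicate number as a block. Srgn, the granule proteoglycan serglycin of blood cells, was 1.67-fold lower (adjusted p = 0.0132).

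Some matrix proteinases and procollagen enhancers fell, 4 of 13, with 0 higher and 9 not passing. Mmp3, a proteinase that cleaves several matrix proteins, was 3.80-fold lower (adjusted p = 0.00321), and Mmp13 1.63-fold lower. Adamts4, an aggrecan-degrading proteinase, read -0.68 and -0.59 on SPI, against 0.64 and 0.71 on CAS (difference -1.31, adjusted p = 0.00371). Pcolce, which enhances procollagen cleavage, was 2.30-fold lower (adjusted p = 0.00901). Bmp1, the proteinase that matures procollagen, did not pass at -0.032.

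Of 17 growth factors and receptors bound by members of the family 1 fell, 1 rose and 15 did not pass, with a median of -0.030. Tlr4, a Toll-like receptor for biglycan, was 1.46-fold lower (adjusted p = 0.0451). Ccn4, a Wnt-induced secreted protein that binds decorin and biglycan, was 1.37-fold higher (adjusted p = 0.0335). Bmp2, a bone morphogenetic protein, was at -0.27 (adjusted p = 0.121) and Kdr, a receptor of vascular endothelial growth factor, at -0.28 (adjusted p = 0.164), and neither passed.

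**Figure D4:**
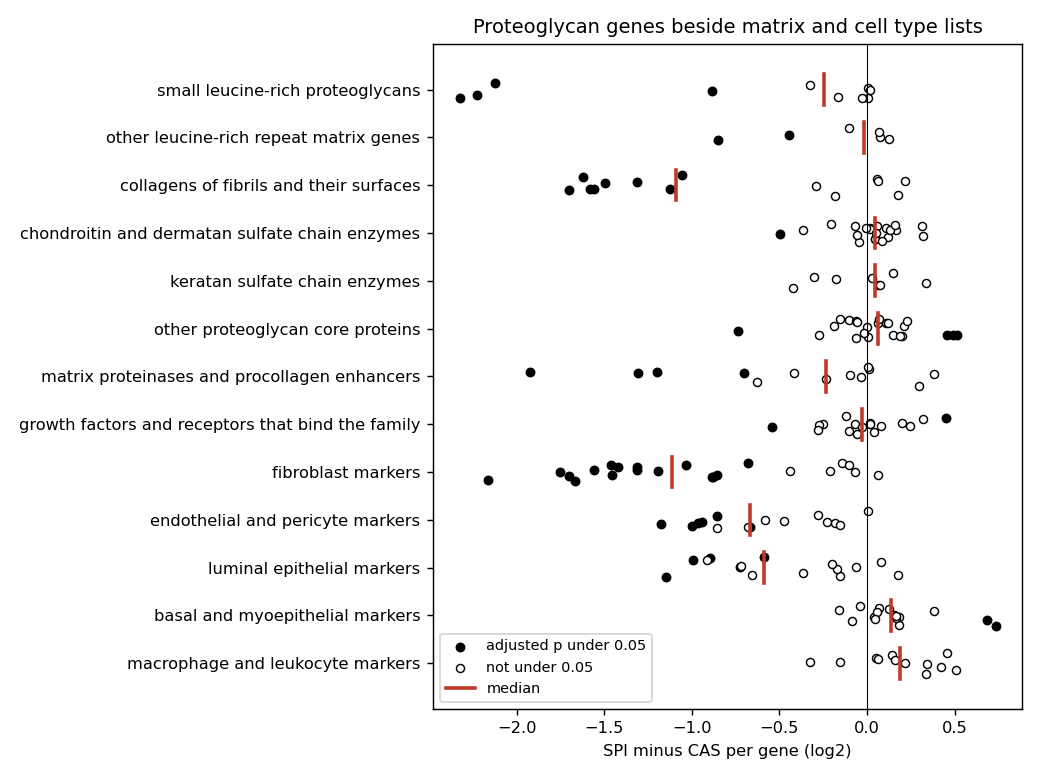
SPI minus CAS difference per gene (log2, horizontal axis) for the 10 proteoglycans and each list, with filled points for an adjusted p under 0.05 and a red bar at the list median. The proteoglycans spread from -2.33 to 0.015, and the medians of the collagens and fibroblast markers lie at -1.09 and -1.11.

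Markers of other cell types were read on the same arrays. Of 22 fibroblast markers, which include Col1a1, Col1a2 and Col3a1 but no member of the family, 16 fell and 0 rose, with a median of -1.11. Their median was -0.54 and -0.51 on the SPI arrays, against 0.51 and 0.53 on the CAS arrays. Centred values give no level for these markers, and 11 of the 22 were in the signal class 8 to 16. Of all 45037 probe sets 12225 were in that class. A gene takes the highest class of its probe sets, so the 2 counts are not alike. Dpt, a dermal matrix protein, was 3.37-fold lower (adjusted p = 0.00321), and Pdgfra, a receptor of fibroblasts, was at -0.85 (adjusted p = 0.0105). The 6 markers that did not pass lay between -0.44 (Dpep1) and 0.063 (Tcf21), with the matrix genes Fbln1 (-0.21), Fbln2 (-0.14), Fstl1 (-0.11) and Loxl1 (-0.067) beside Dcn and Bgn near 0. Of 15 endothelial and pericyte markers 6 fell, of 15 luminal markers 5 fell, and none of either list rose, with medians of -0.67 and -0.59. The endothelial cadherin gene Cdh5 was at -0.94 (adjusted p = 0.00724; averaged over all of its probe sets -0.42, adjusted p = 0.0552), Plvap of vessel walls at -0.86, and the pericyte genes Rgs5 and Notch3 at -0.997 and -0.97. Among luminal genes Aldh1a3, an aldehyde dehydrogenase, was at -1.15 (adjusted p = 0.00825), Ehf at -0.996, Krt18 at -0.73 and the estrogen receptor gene Esr1 at -0.59. Of 16 basal and myoepithelial markers 0 fell and 2 rose (median 0.14), the keratin gene Krt15 at 0.73 (adjusted p = 0.0135) and the oxytocin receptor gene Oxtr at 0.68 (adjusted p = 0.0127). Averaged over all of their probe sets Notch3 was at -0.64, Ehf at -0.69, Esr1 at -0.39 and Oxtr at 0.49, and each kept its call. Trp63, at 0.38, and Mylk, the myosin light chain kinase gene, at 0.18, did not pass, and all 16 markers, Krt5, Krt14, Acta2 and Trp63 among them, were in the signal class 8 to 16. Of 12 macrophage and leukocyte markers 0 passed in limma (median 0.19), with Cd68 at 0.51, C1qc at 0.42, C1qb at 0.34 and Cd14 at -0.32 (unadjusted p between 0.00438 and 0.0131). The part of fibroblast RNA in the values of Lum, Fmod, Ogn and Aspn was not tested.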

How the data were processed

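Expression was measured on 4 Affymetrix arrays, 2 per diet. Per the submitters' processing notes the authors used GCOS and RMA (no versions given in the sources used here), so the deposited values are log2 expression, the base being that of RMA. Each row had a median within 5e-07 of 0, which shows that each probe set was centred before deposit, though no label mentions it. Levels are lost. The step size of the digits (tolerance 0.15 of a step) places a probe set in a class, following the lowest of its arrays. The classes are 8 to 16, 4 to 8, 2 to 4 and under 2. Where all 4 values are used, a probe set reaches the class above by chance in about 12.5% of cases. That share is larger where only 2 are used, as for Dcn 1449368_at and Bgn 1416405_at. Of 101 ribosomal protein probe sets 77 were in the top class and 95 at class 4 or above, against 3 and 13 of 43 for olfactory receptors, so class 4 or above does not mean that a gene is expressed.

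The 45101 probe sets held 64 controls. Of the rest 34945 had 1 gene, 932 several and 9160 none listed, and symbols were updated by gene ID with RefSeq for GRCm38.p6 (34741 matched). Promoter sequences were found for 8 members, Lum and Dcn being the others. limma 3.58.1 in R 4.3.3 (lmFit, eBayes, two-sided, no block) was run over all 45037 non-control probe sets and, for lists and neighbours, over 18193 genes, a gene being the mean of its probe sets in its highest class. There were 2 residual and 3.11 prior degrees of freedom over probe sets, and 2 and 3.03 over genes. The fit was tested on simulated data. The number of arrays limits the precision, and an exact permutation test of 2 against 2 arrays cannot go below p = 0.333. A variance trend over intensity was not possible without levels.

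The members, lists, tests and alternatives were chosen with earlier results of these data known. Named from each list were the 4 genes with the smallest p with Ecm2, Optc and Epyc. Pdgfra, Bmp1, Col5a1, Col14a1, Col12a1, the 6 fibroblast markers that did not pass and the basal markers Krt5, Krt14 and Acta2 were named after their values were seen. No set test was run. Same-numbered arrays did not deviate together (correlation of deviations -0.0989 over all probe sets), so the numbers were not taken as pairs. Alternatives were a replicate block, each array left out, other centrings, a level filter, an ordinary t statistic, a variance trend over class, robust eBayes, a threshold of 0.10 and, per gene, the mean over all its probe sets.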

Additional observations from a re-analysis of the deposited data

How the results depend on the processing

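Direction and call were kept for all 21 probe sets under robust eBayes and a variance trend over the signal class, and for the 17 at class 4 or above when only those were tested. Without any 1 array the 10 calls were lost. By the ordinary t statistic 0 of the 21 passed and 1 of all 45037, while 12 and 6084 had an unadjusted p under 0.05. Leaving out an array leaves a lone array assumed to vary like the other diet. The Lum difference then ranged from -2.38 to -2.27 and that of Ogn 1419663_at from -2.18 to -2.08, with adjusted p from 0.122 to 0.2 for both. With the replicate number as a block 3 of the 10 calls were lost, those of Fmod 1437685_x_at (adjusted p = 0.0586), Fmod 1438966_x_at (adjusted p = 0.081) and Aspn 1416652_at (adjusted p = 0.132). The 4 genes called lower as genes, and the 17 genes lower and 4 higher of the matrix lists, also lost their calls without any 1 array and by the ordinary t statistic. Every other gene on the array lost its call in these fits too. The 4 higher became 0 under the replicate block, 2 with the mean of all probe sets and 10 with arrays centred on hybridization controls. Of single lists, under the replicate block the falling leucine-rich repeat genes went to 1, Chst12, Tlr4, Ccn4, Vcan, Spock1, Spock2, Mmp13, Krt18 and Esr1 lost their calls, and luminal markers called lower numbered 3. Under the block 75 of all probe sets were called lower and 4 higher, against 564 and 112 without the block, and of all genes 277 and 25, against 527 and 144. Of all probe sets 844 and 319 were called at level class 4 or above, 934 and 347 with the variance trend and 1109 and 470 at the threshold of 0.10, and of all genes 661 and 277, 701 and 277, and 916 and 478. Luminal markers called lower numbered 8, against 5, with arrays centred on hybridization controls, at level class 4 or above, with the variance trend, at the threshold of 0.10 and with the mean of all probe sets. With the hybridization controls macrophage and leukocyte markers called higher numbered 5, with 2 higher each among chondroitin enzymes, proteinases and growth factors, 1 among keratan enzymes, and no call for Chst12 and Tlr4. Csgalnact1 and Chst1 (lower) and Chst11 and Trp63 (higher) were called at level class 4 or above, with the variance trend and at the threshold of 0.10. Chst1 was also called with arrays centred on their median and with the mean of all probe sets, and Epyc lost its call under the block, the variance trend and the hybridization controls. Centring on those 18 controls, which differed by -0.16, moved the median of all probe sets to 0.18. Signs then turned for Dcn 1441506_at (0.038), Bgn 1416405_at (0.15), Prelp 1416322_at (0.078), Podn (0.13) and Ecm2 (0.054), and Aspn 1448421_s_at was called (adjusted p = 0.0399), as at the threshold of 0.10 (adjusted p = 0.0927). Centring on the array medians turned Dcn 1449368_at (-0.0071) and Bgn 1437889_x_at (-0.0056). Without 1 array the sign turned within ranges of -0.28 to 0.044 for Dcn 1441506_at, -0.022 to 0.0048 for Bgn 1416405_at, -0.061 to 0.080 for Bgn 1437889_x_at, -0.042 to 0.073 for Prelp 1416321_s_at, -0.20 to 0.042 for Prelp 1416322_at, -0.024 to 0.16 for Optc and -0.23 to 0.029 for Ecm2. The causes were not tested.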
